A study of Homo sapiens with 8 samples.

Results

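The chromosome 8 centromere array was examined in DNA recovered by ChIRP, a method in which biotin-tagged antisense probes pull an RNA and its associated chromatin out of sonicated cells. The probes were directed against α-satellite RNA. Members were all listed peaks that start between 44 and 47 Mb on chromosome 8 of build hs1, 815 of 32035 peaks in the asynchronous list and 780 of 33553 in the mitotic list. The cells were RPE1, an immortalised human retinal pigment epithelial line of wild-type genotype, taken either as an asynchronous culture or as mitotic cells, labelled Meta. The way in which mitotic cells were obtained was not given in the sources used here. The labels list 8 libraries, and each peak list comes from the merged Odd and Even probe libraries of its condition. Input and Scr libraries were not analysed here. Since a condition has 1 merged list and hence no replicate error, nothing was tested between conditions, and every interval below is an exact 95% interval for counting error alone. Read depth is unknown.

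α-Satellite DNA consists of short monomers in tandem, which on most human chromosomes are built into longer units, the higher-order repeats, that recur along an array of megabase size. The kinetochore forms on part of such an array, and older, more diverged α-satellite usually lies on its outer sides. Array length differs between people, and hs1 is the assembly of another cell line, so the reference array need not have the length or the unit order of the arrays in RPE1. No sequence of build hs1 was used here, so neither monomers nor higher-order repeats were assigned to positions, and no sequence is shown.

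Nearly every member belonged to a single compact block. Peaks of both lists joined over gaps of at most 100 kb ran from 44183554 to 46370370, a span of 2.19 Mb, called the array below. It held all 815 asynchronous peaks and 779 of the mitotic ones. The remaining mitotic peak, at 46849151 to 46849319, was 169 bp wide with a fold enrichment of 4.31, the peak caller's ratio of pileup to local background. It lay 493 kb past the last mitotic peak of the array. Peaks covered 1.86 Mb of the array in each list, which is 84.9% and 85.2% of the span. Peaks of the window made up 2.54% of the asynchronous list (2.37 to 2.72%) and 2.32% of the mitotic list (2.17 to 2.49%), but 3.91% and 3.87% of its covered length. The ratio of mitotic to asynchronous peaks in the array was 0.956 (0.865 to 1.06), an interval that includes 1 and treats neighbouring peaks as independent.

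Both ends of the array were ragged before coverage became dense. At the low-coordinate end the asynchronous list opened with peaks of 2020, 524 and 243 bp, starting at 44183554, 44190675 and 44201354. Dense coverage followed a gap of 13381 bp, from a 4443 bp peak at 44214978 to 44219420. The mitotic list opened with peaks of 318 and 1397 bp at 44183704 and 44185101. After a gap of 15606 bp came peaks of 2245 bp at 44202104 and 2945 bp at 44211854. A mitotic peak then ran unbroken for 14316 bp, from 44215105 to 44229420. The same stretch held 5 separate asynchronous peaks that covered 84.5% of it.

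At the high-coordinate end the lists stopped at different places. The last mitotic peak was wide, 8834 bp from 46347239 to 46356072. In the asynchronous list a 6848 bp peak from 46347350 to 46354197 was followed by a 416 bp peak at 46356805. Past a gap of 10234 bp lay peaks of 1690 bp at 46367455 and 807 bp at 46369564. Those last 2 asynchronous peaks had fold enrichments of 7.17 and 5.48, below the asynchronous array median of 10.4, and the mitotic list had no peak there. In 10 kb bins, coverage first reached 50% in the bin from 44220000 in asynchronous and from 44210000 in mitotic cells. The last bin at or above 50% ended at 46349999 and at 46359999. These offsets rest on the cut, since asynchronous coverage was only a little under 50% in the bin from 44210000 and in that ending at 46359999.

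**Figure D1:**
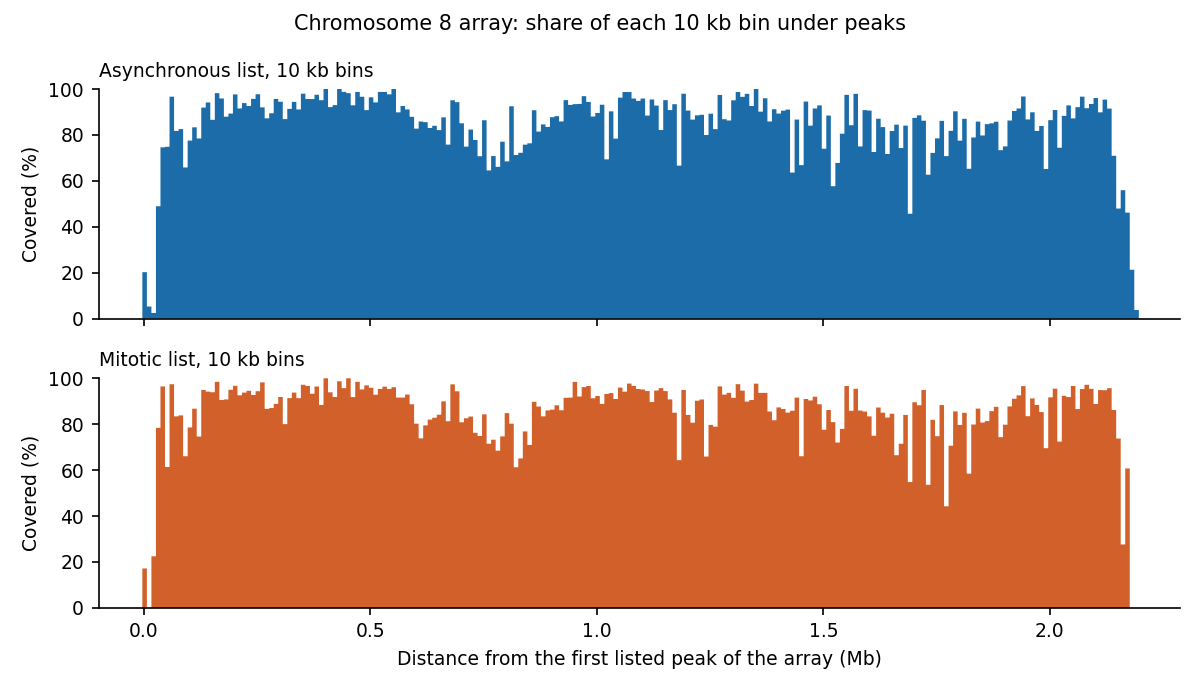
The share of each 10 kb bin under peaks is plotted in percent against the distance in Mb from the first listed peak of the array, for the asynchronous list (upper panel) and the mitotic list (lower panel). Coverage rises steeply near the edge, has a median of 88.4% and 88.8% over the 218 bins inside the array, and dips in both lists at about the same distances.

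Between these ends coverage was high but not even, and it rose and fell in the same places in both lists. Of the fixed 100 kb bins of the window, 21 lie wholly inside the array. Their coverage ran from 68.8% to 95.9% with a median of 89.2% in the asynchronous list, and from 75.5% to 95.7% with a median of 87.7% in the mitotic list. In each list 9 of them were covered to at least 90% and 5 to less than 80%. Across the 21 bins the coverage of the lists had a Pearson r of 0.94, and over the 218 bins of 10 kb r was 0.87. These points share the reference sequence and the placement of reads on it, so r describes the profile and is not independent support.

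The fullest bins lay in the low-coordinate part of the array. The bin from 44600000 was covered to 95.9% in asynchronous and 95.7% in mitotic cells, by only 16 and 17 peaks that start in it. The bin from 44500000 reached 95.1% and 94.2%. Each list had a further bin among its 3 fullest, at 93.0% from 45500000 in asynchronous cells and at 94.7% from 45200000 in mitotic cells. At the sparse end stood the bin from 44200000, which includes part of the ragged edge, at 68.8% and 75.5%. Away from the edge the bin from 44900000 was covered to 75.7% and 77.2%. The 3 sparsest bins of each list also took in the bin from 45800000, at 78.8% in asynchronous cells, or from 45900000, at 75.9% in mitotic cells. The outermost bins with peaks in both lists were nearly empty or partly filled, at 2.54% and 1.72% from 44100000 and at 43.3% and 43.9% from 46300000.

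Read along the array, the bins fell into a run of fuller and sparser stretches, whose limits were set after the values had been seen. From 44.3 to 44.8 Mb coverage was 93.4% in asynchronous and 92.6% in mitotic cells, with 26.2 and 27.2 peaks per 100 kb and a median width of 2370 and 2381.5 bp. From 44.8 to 45.1 Mb it was 80.5% and 80.7%, with 48.0 and 42.7 narrower peaks per 100 kb. It stood at 91.5% and 93.6% from 45.1 to 45.3 Mb and at 90.5% and 88.4% from 45.3 to 45.6 Mb. The longest sparse stretch, from 45.6 to 46.1 Mb, had 80.6% and 81.0%, with 51.8 and 49.6 peaks per 100 kb and a median width of 1271 and 1371.5 bp. From 46.1 to 46.3 Mb coverage was higher again, at 88.3% and 89.8%.

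More peaks therefore did not mean more coverage. Over the 21 interior bins the number of peaks that start in a bin and the covered share had an r of -0.70 (asynchronous) and -0.76 (mitotic). Part of this is arithmetic, since each further gap both adds a peak and removes covered length. The asynchronous bin from 45900000 had the most peak starts, 60, and was covered to 79.3%.

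**Figure D2:**
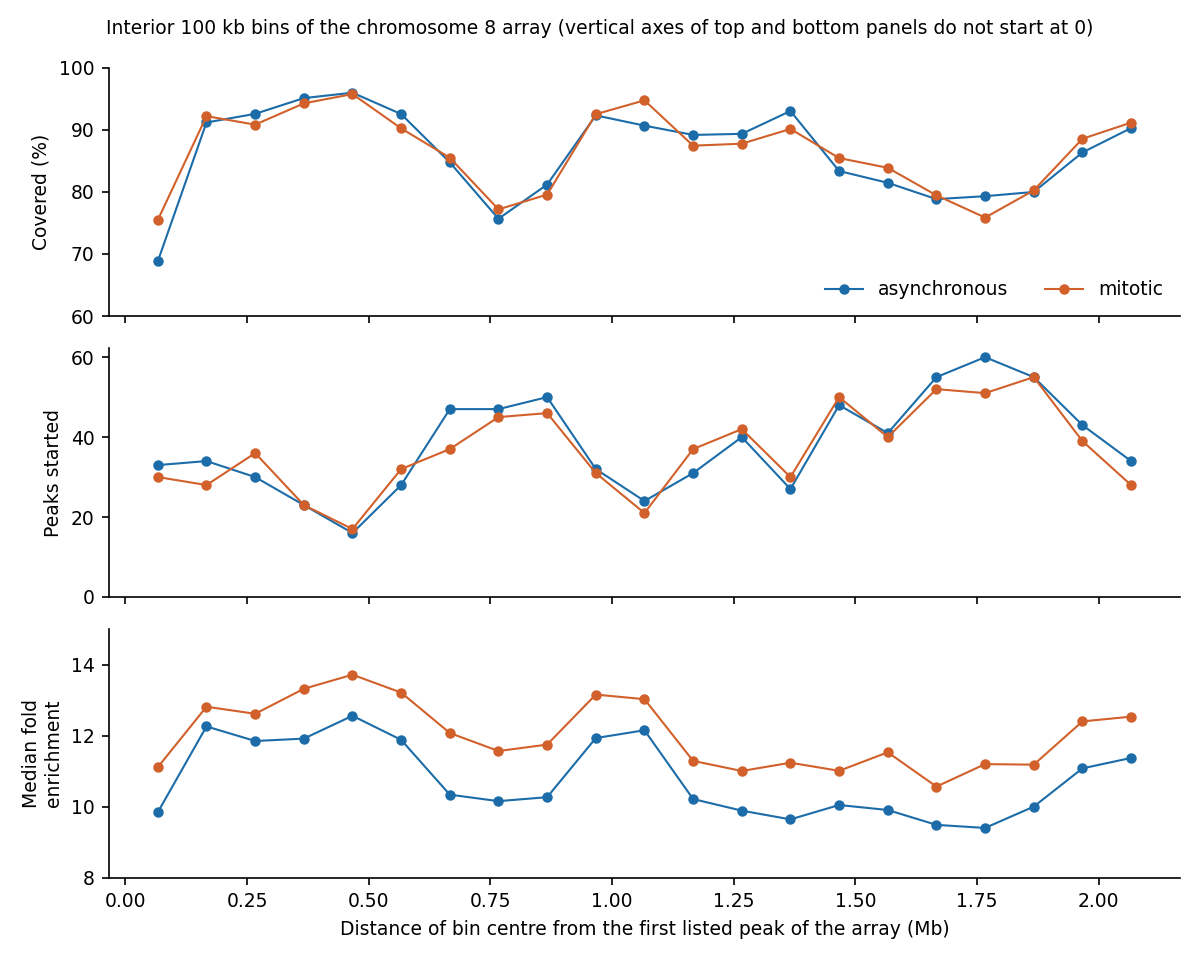
Covered share (percent), number of peaks started and median fold enrichment are plotted for the 21 interior 100 kb bins against the distance of the bin centre from the first listed peak (Mb), with asynchronous values in blue and mitotic values in orange. Coverage and peak number run opposite to each other in both lists, and fold enrichment is relative to each list's own background, so that its level is not compared between lists.

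Fold enrichment followed a related but different course, and was read only within each list. Its median per interior bin ran from 9.40 to 12.6 in the asynchronous list and from 10.6 to 13.7 in the mitotic list, with an r between lists of 0.96 over the 21 bins. The bin from 44600000, the fullest, also had the highest median in both lists. Across bins, median fold enrichment and coverage had an r of 0.71 and 0.77. The stretch from 45.3 to 45.6 Mb departed from that: its coverage of 90.5% and 88.4% stood beside 91.5% and 93.6% in its neighbour from 45.1 to 45.3 Mb, while its median fold enrichment was 9.73 against 12.04 in the asynchronous list and 11.2 against 13.1 in the mitotic list. It was thus densely covered by peaks of an enrichment close to that of the sparse stretch from 45.6 to 46.1 Mb, whose medians were 9.85 and 11.2. The limits of these stretches were set after the bin values had been seen. The contrast therefore depends on where they were drawn and is only described.

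The array's peaks were wide compared with the lists they came from. Median widths were 1644 and 1718 bp (asynchronous and mitotic), against 868 and 796 bp over the whole lists. The middle 50% of widths ran from 820 to 2871.5 bp and from 894.5 to 2984 bp. In the asynchronous list 70 peaks of at least 5000 bp held 30.9% of the covered length, and in the mitotic list 78 such peaks held 33.7%. At the other end, 105 asynchronous and 99 mitotic peaks were under 500 bp and held 2.004% and 1.986%.

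The widest peaks lay mostly in the fuller stretches, and most of them were divided in the other list. The widest asynchronous peak ran over 19646 bp from 44604128 to 44623773, and 3 mitotic peaks covered 98.8% of it. Those from 44729876 to 44745721 (15846 bp) and from 45529701 to 45545246 (15546 bp) were met by 4 and 3 mitotic peaks covering 94.0% and 97.5%. The asynchronous peak of 12897 bp from 44704476 to 44717372 met 4 mitotic peaks. By contrast, the one of 13923 bp from 44579676 to 44593598 lay entirely within the widest mitotic peak, which ran over 18346 bp from 44575325 to 44593670. Further mitotic peaks of 15520 bp from 45283478, 14645 bp from 45313603 and 14444 bp from 44332578 met 3, 4 and 2 asynchronous peaks that covered 98.1%, 87.6% and 97.2% of them. Division of these peaks thus went both ways, which is partly fixed by choosing them for their width. Over all array peaks, 151 of 815 asynchronous and 175 of 779 mitotic ones met 2 or more peaks of the other list. Of the 5 widest peaks of each list, the other list covered at least 94.0% of every asynchronous one and between 84.5% and 98.8% of the mitotic ones, the lowest being the 14316 bp peak at the low-coordinate edge.

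The 5 most enriched peaks of each list were of mixed width: 1 asynchronous and 2 mitotic ones were wider than the median array peak of their list, and the other 7 were narrower. The highest asynchronous value, 16.6, belonged to a peak of 1099 bp from 44746926 to 44748024, and the next, 16.1, to one of 1817 bp from 44986029. The other 3 followed at 45170330, 45112953 and 45853313, with 15.8, 15.7 and 15.7 at widths of 743, 995 and 1085 bp. In the mitotic list the highest was 18.1, on a peak of 744 bp from 45990453 to 45991196, followed by 16.8 on one of 694 bp from 44429580. Peaks at 44769802, 44524352 and 45198200 had 16.4, 16.3 and 16.2 at widths of 994, 4219 and 1850 bp. All 10 lay at least 96.9% under peaks of the other list. None of the asynchronous 5 met any of the mitotic 5. With 5 taken from 815 peaks and 5 from 779, a meeting would be rare even for unrelated ranks, so nothing is read from this. Over all array peaks, wider ones had the higher enrichment: r with log2 width was 0.52 over 815 asynchronous and 0.49 over 779 mitotic peaks.

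**Figure D3:**
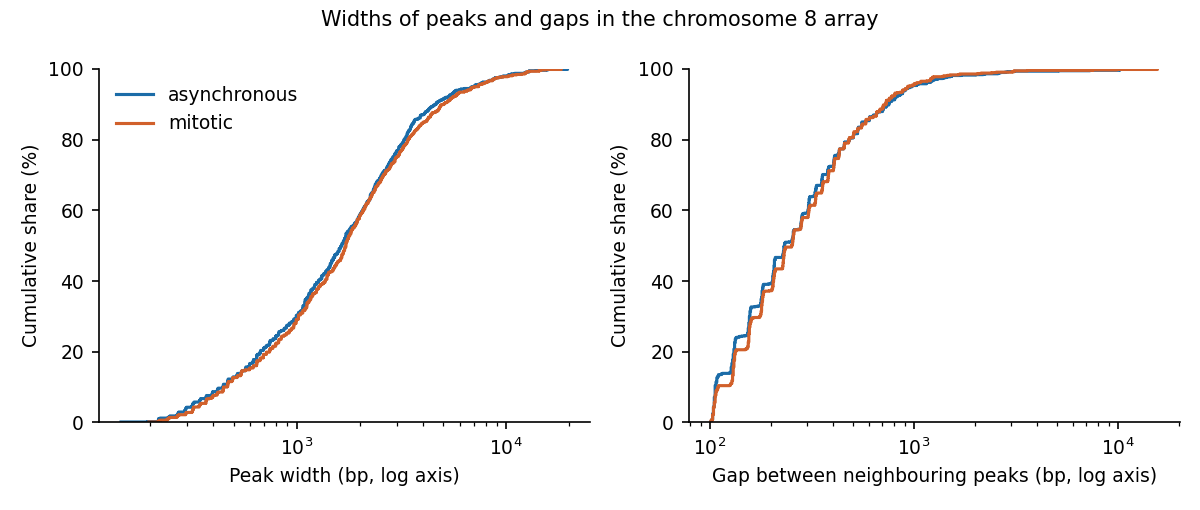
Cumulative shares (percent) of peak widths (left) and of gaps between neighbouring peaks (right) are plotted on log axes in bp, with asynchronous values in blue and mitotic values in orange. The curves of both lists nearly coincide, with median widths of 1644 and 1718 bp and median gaps of 231.5 and 251.5 bp, and gaps climb in small steps from just above 100 bp.

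Gaps between neighbouring peaks were short. No gap in either list was of 100 bp or less, the medians were 231.5 and 251.5 bp, and 90% were at most 752.4 and 726.6 bp. Gaps under 200 bp made up 39.3% of the 814 asynchronous and 37.3% of the 778 mitotic gaps, but 13.1% of the summed gap length in each. Gaps of at least 1000 bp numbered 38 and 35 and held 30.3% and 27.3% of it. Most of the 5 longest of each list lay at the ragged ends. Besides those already given, they ran over 10155 bp from 44191199, 7282 bp from 46334897 and 5101 bp from 44185574 in the asynchronous list. In the mitotic list they ran over 9864 bp from 46337375, 7505 bp from 44204349 and, past the start of dense coverage, 3606 bp from 44235371.

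Inside the dense part, from 44.3 to 46.3 Mb, no asynchronous gap exceeded 2883 bp and no mitotic gap 3078 bp. This longest interior gap was at the same place in both, from 45871421 to 45874303 and from 45871223 to 45874300. Between the edge and 44.3 Mb, an asynchronous gap of 3104 bp from 44273799 was matched by a mitotic gap of 3103 bp, the fifth longest of its list, with the same first base. The dense part held 25 asynchronous and 26 mitotic gaps of at least 1000 bp, of which 14 and 16 lay in the sparse stretch from 45.6 to 46.1 Mb and 0 and 2 in the full stretch from 44.3 to 44.8 Mb.

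Running numbers in the peak names were missing at most of the long gaps. Numbers increase along the array in both lists, and a number missing between neighbours was taken as a call left out of the deposited list, which no file at hand allowed to be checked. Of 964 asynchronous and 921 mitotic numbers in the array, 84.5% and 84.6% were listed. Missing numbers fell in 112 asynchronous and 110 mitotic gaps, whose median length was 807.5 and 732 bp, against 206 and 209 bp where no number was missing. On this reading the contrast is partly fixed by construction, since leaving out a call joins the gaps on its sides and adds its own width. Of gaps of at least 1000 bp, 37 of 38 and 30 of 35 had a missing number. Gaps with a missing number held 45.2% and 42.1% of the summed gap length, so on the same reading part of the uncovered length had been called but not listed. Between the last mitotic peak of the array and the isolated peak at 46849151, 63 numbers were missing.

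Placement of peaks was largely shared between conditions. Of the asynchronous peaks 786 of 815 (96.4%, 94.9 to 97.6%) met a mitotic peak by at least 1 bp, as did 759 of 779 mitotic peaks (97.4%, 96.1 to 98.4%) in the other direction. Over all chromosomes 81.9% of the 32035 asynchronous and 79.2% of the 33553 mitotic peaks were so met, and in the largest peak regions of the 23 chromosomes the median was 88.8% and 88.1%, with the array ranked 1st in both lists. Covered by both lists was 1.75 Mb, 94.3% of what the asynchronous and 94.0% of what the mitotic list covered, a Jaccard index (shared over combined base pairs) of 89.0%. The 29 unmet asynchronous peaks (3.56% of the array's, against 18.1% of the whole list) had a median width of 371 bp and a median fold enrichment of 5.35, and the 20 unmet mitotic ones (2.57%, against 20.8%) had 423 bp and 7.92. Together they covered 18.3 and 15.7 kb. At such coverage peaks meet easily, and the stricter measures were lower. With a reciprocal overlap of at least 50%, 541 peaks of each list matched, 66.4% of the asynchronous and 69.4% of the mitotic ones. Of the asynchronous starts 195 (23.9%) lay within 25 bp of a mitotic start, and 437 (53.6%) within 100 bp.

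The lists left 329 and 323 kb of the array open, of which 218 kb was open in both, a Jaccard index of 50.1%. This value is not comparable with the index of covered base pairs, because the same mismatched base pairs are set against a much smaller shared length. Of asynchronous gaps of at least 500 bp, 125 of 159 were open over more than 50% of their length in the mitotic list. The reverse held for 112 of 151 mitotic gaps. In the finer view by bin, the Jaccard index of covered base pairs ran from 80.1% in the bin from 45900000 to 96.4% in the bin from 44600000, and its r with asynchronous coverage was 0.86. The index rises with coverage by itself, and the part of this in r was not tested.

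Mitotic and asynchronous coverage differed little in any interior bin. Coverage was higher in the mitotic list in 12 of the 21 and lower in 9, and 18 differed by less than 3 percentage points. The largest mitotic minus asynchronous difference was 6.64 points in the edge bin from 44200000, followed by 4.06 points from 45200000 and 2.42 points from 45700000. On the other side it was -3.44 points from 45900000, -2.89 from 45500000 and -2.30 from 44700000. Of the 22 window bins with at least 10 kb covered, 0 had at least 25% more covered length in the mitotic than in the asynchronous list, and 0 had at least 25% more in the asynchronous list. Over all 820 such bins of the genome, 11.7% were called in the first direction and 6.22% in the second. Well covered bins have little room for such a rise, and among the 267 bins of other chromosomes with asynchronous coverage in the range of the array's interior bins the same calls made up 0% and 1.87%, so the count of 0 here is near its background. The median absolute difference was 1.61 points in the array's interior bins and 2.97 points in those 267 bins.

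Peaks of high enrichment filled much of the array in both lists. Among the 25% of each list with the highest fold enrichment (at least 9.74 and 9.96, respectively), the array held 518 asynchronous and 603 mitotic peaks, 63.6% and 77.4% of its own peaks. They alone covered 67.9% and 77.2% of its span. With these peaks only, covered length was larger in the mitotic list in 18 of 22 bins, as it was in 64.2% of the 509 such bins of the genome, and smaller in 4, against 35.8%. It was at least 25% larger in 4 of the 22, against a background of 39.9%, and at least 25% smaller in 0, against 27.5%. The 4 bins were the edge bins, from 44200000 (36.9% and 65.8%) and from 46300000 (26.5% and 43.4%), and those at 45.6 Mb (49.5% and 70.6%) and 45.8 Mb (40.2% and 59.0%) in the sparse stretch. These 4 bins also had the lowest asynchronous coverage by such peaks among the 22, and fuller bins have less room for such a rise. The genome shares were not matched for coverage, so the counts are not read against them. In the largest peak regions of the 23 chromosomes the median share of peaks of such enrichment was 28.6% and 25.7%. The array ranked 2nd in both lists. Median coverage of the regions by such peaks was 30.1% and 21.96%, with the array 3rd in both. The share of peaks was higher in the mitotic list in 15 of the 23 regions. The array's rise of 13.8 points ranked 6th, against a median of 7.77, so a rise was not particular to this array. The limit is a rank within lists of different length. These values are therefore only set side by side and cannot show whether the cells changed.

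Set beside the largest peak region of each of the other 22 chromosomes, built by the same joining rule, the array was short and well filled. Its span ranked 18th of 23. Its covered share ranked 4th in the asynchronous list, after chromosomes 3, 21 and 9, and 5th in the mitotic list, where chromosome 15 also stood above it. The median coverage of the 23 regions was 70.7% and 72.9%. Its median fold enrichment ranked 3rd in the asynchronous list, at 10.4 against a median of 8.44 over the regions, and 2nd in the mitotic list, at 11.8 against 8.55. The Jaccard index of covered base pairs ranked 3rd, after chromosomes 3 and 21, and that of uncovered base pairs 10th, at 50.1% against a median of 48.8%. Both indices depend on the covered share.

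The share of running numbers that were listed was the highest of the 23 regions in both lists. It was 84.5% and 84.6% on chromosome 8, while the median over the regions was 70.4% and 68.9%. On chromosome 3, with more coverage, it was 77.4% and 78.7%, and on chromosome 9 it was 79.2% and 80.7%. Arrays are not replicates of each other, so these ranks describe the lists and were not tested.

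**Figure D4:**
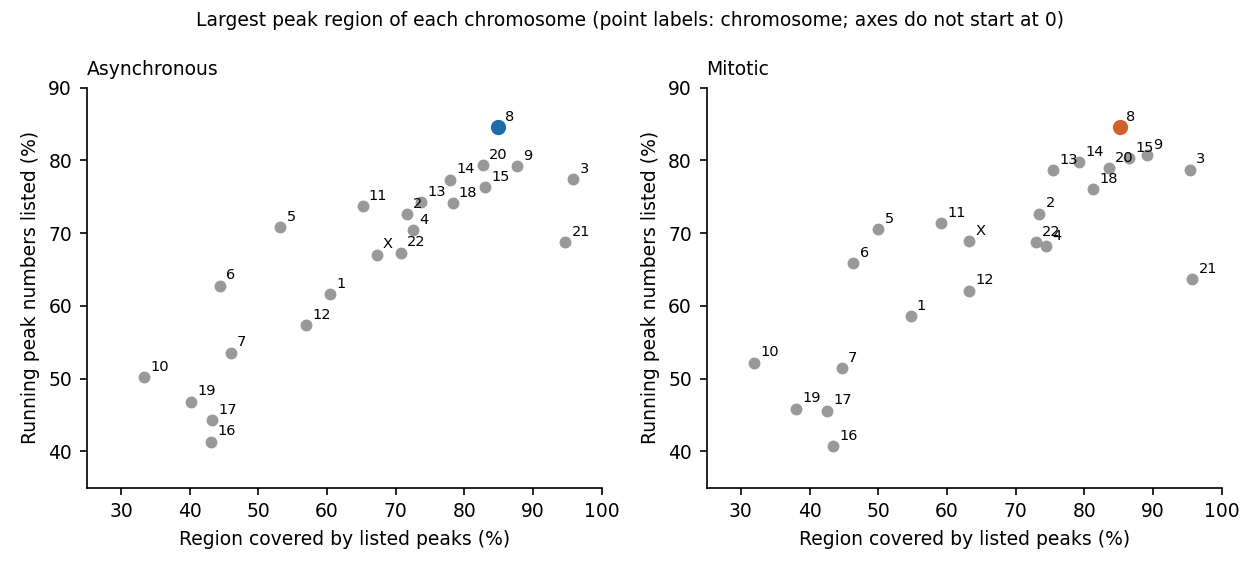
Each point is the largest peak region of a chromosome, plotted by the share of the region covered by listed peaks (percent, horizontal) and the share of its running peak numbers that are listed (percent, vertical), for the asynchronous list (left) and the mitotic list (right). The coloured point is chromosome 8, at 84.9% and 85.2% coverage with 84.5% and 84.6% of the numbers listed, above all other regions on the vertical axis.

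Distances near 2.5 kb were among the most frequent between peak starts in both lists, but other distances led or came close. Start followed start at a median of 2026.5 bp (asynchronous) and 2124 bp (mitotic). Over all pairs of starts less than 5000 bp apart, counted in a window of 51 bp, the median count from 1000 bp upward was 16 and 15 pairs. The most frequent distance was 2525 bp in the mitotic list, with 29 pairs, where the asynchronous list had 28. In the asynchronous list it was 3800 bp, with 33 pairs, where the mitotic list had 21, and 2500 bp came next with 32. In a window of about 100 bp both lists led near 2.5 kb, at 2497 bp with 60 pairs and at 2548 bp with 49, against medians of 33 and 31.

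The distance near 2.5 kb did not lead when other points of the peaks were used. From peak ends the leading distances were 3701 and 3750 bp, and from midpoints 2001 and 4775 bp. For mitotic midpoints 4775 bp was tied with 2876 bp, at 30 pairs each. Further distances between starts came close too, with 27 mitotic pairs at 3675 bp. Positions also lay near a grid of 25 bp: divided by 25, 93.3% of the asynchronous and 93.8% of the mitotic starts in the array left a remainder of 1 to 5, as did 90.8% and 92.1% over all chromosomes. Distances are therefore resolved to about 25 bp at best. No chance level was computed for these counts, so they are given as a description.

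**Figure D5:**
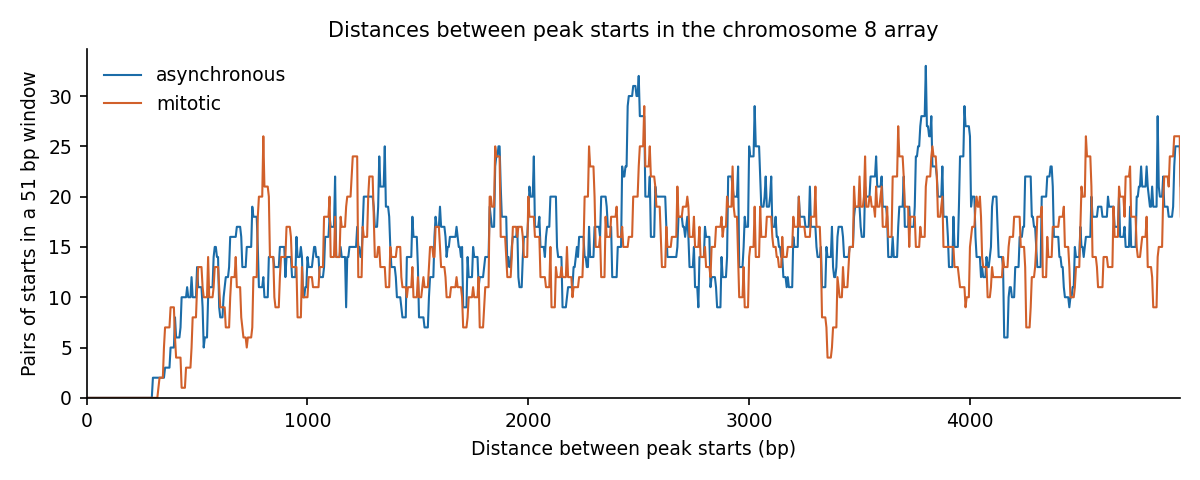
The number of pairs of peak starts in a 51 bp window is plotted against their distance (bp) for the asynchronous list (blue) and the mitotic list (orange). Counts vary mostly around 16 and 15 pairs, with the highest values at 3800 bp (33 pairs, asynchronous) and 2525 bp (29 pairs, mitotic), and both lines rise near 2500 bp.

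Reads from near-identical repeats can map to several copies, with the method of placement not given in the sources used here. The part of read placement in these profiles was not tested. Probes against α-satellite RNA can also pair with α-satellite DNA, and the lists do not separate DNA held by RNA from DNA bound by the probes.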

How the data were processed

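Peaks came from 2 deposited lists, 1 per condition, for which the authors, per the labels, merged the Odd and the Even library. The submitters' processing notes name fastp, Bowtie2, MACS2 and build hs1, with no versions. Peak settings, control library and read placement: not given in the sources used here. The lists have no header, so columns were read from the values: the deposited pileup signal (scaling unstated), the authors' fold enrichment (a ratio to local background), and −log10 q as deposited. The 3 further deposited score columns are unnamed and were not used. All columns listed belong to a group. Positions are 1-based.

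Samples were grouped by title. Covered length, widths, gaps, overlaps and distances between starts were computed with Python 3.11.15 (scipy 1.17.1, numpy 2.4.6, pandas 2.3.3) and plotted with matplotlib 3.10.9. On simulated, more regular peaks the code returned 3 of 3 planted values, where a multiple of the planted distance would also have counted. Intervals are exact: Clopper-Pearson for shares, conditional binomial for the ratio. No test was made between conditions. Named features were the first and last bins with a peak, the 3 fullest and 3 sparsest interior bins, the 3 bins with the largest difference in each direction, and the 5 widest peaks, 5 most enriched peaks and 5 longest gaps of each list. Others were named after their values had been seen. The members and rules were chosen with earlier results of these data known. Alternatives were stricter peak limits, joined peaks, other bins, gaps and overlaps. The gene table at hand is of another build, so no gene is named.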

Additional observations from a re-analysis of the deposited data

How the results depend on the processing

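No paired analysis was possible because the Odd and Even libraries of each condition were merged into 1 list, and no replicate could be left out. Values below are asynchronous, then mitotic. With peaks limited to a −log10 q of 5 or more and a fold enrichment of 6 or more, coverage was 83.9% and 84.8%, the Jaccard index 88.8%, the sparsest interior bin 67.4% and 74.4%, and the largest bin difference 8.12 points, while 98.2% of asynchronous peaks were met. Peak numbers (761 and 753) and both ranks by coverage were within the limits set for calling a value unchanged. With only the 25% of each list of highest fold enrichment, there were 518 asynchronous peaks, coverage was 67.9% and 77.2%, median width 2173.5 and 2020 bp, median gap 405 and 330 bp, and median fold enrichment 11.6 and 12.4. The Jaccard index was then 77.7%, 84.4% of mitotic peaks were met, the sparsest interior bin stood at 36.9% and 57.3%, and the largest difference was 28.8 points. In the mitotic list 4 of 22 bins had at least 25% more covered length, against 39.9% of such bins over all chromosomes, a share not matched for coverage. Fewer peaks enter by construction.

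Joining peaks over gaps of at most 200 bp left 495 and 490 peaks, with coverage of 86.9% and 87.1%, a median width of 2324 and 2492 bp and a median gap of 356 and 379 bp. Peaks of at least 500 bp had a median width of 1907.5 and 1922.5 bp. Gaps with no missing number, an alternative added after the data had been seen, had a median of 206 and 209 bp. In bins of 50 kb the sparsest interior bin was covered to 59.5% and 71.2%, with a largest difference of 11.7 points. In bins of 200 kb these were 79.1%, 77.6% and 3.83 points, and in bins started 50 kb later 76.1%, 74.5% and 4.97 points. In bins of 10 kb, also added afterwards, they were 2.43%, 0% and 29.5 points. The bins at 2.43% and 0% lay at the ragged ends. Between the first and last 10 kb bins covered to at least 50%, the lowest stood at 45.7% and 27.6%. At this size 8 bins had at least 25% more covered length in the mitotic list and 4 at least 25% more in the asynchronous list. No share over all chromosomes was computed for bins of 10 kb, so these counts are not read as a difference. A reciprocal overlap of at least 50% was reached by 66.4% and 69.4% of peaks. Regions joined over at most 200 kb put the array at rank 3 by coverage in both lists. The most frequent distance was 3701 and 3750 bp from ends, 2001 and 4775 bp from midpoints, and 2497 and 2548 bp with a window of about 100 bp. For mitotic midpoints 2876 bp had as many pairs as 4775 bp. Beyond what the construction of an alternative explains, the cause was not tested. Depth is unknown.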

Other observations

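On the rest of chromosome 8 the lists held 12 asynchronous and 48 mitotic peaks, 2 and 5 of them below the window and 10 and 43 above it. They were short, with median widths of 208 and 218 bp and the widest at 346 and 307 bp, and had median fold enrichments of 3.78 and 4.01, each within its own list. Nearest to the window on the low-coordinate side were an asynchronous peak at 43948602 to 43948947 and a mitotic peak at 43907853 to 43908071. On the high-coordinate side the nearest were at 55082601 to 55082810 in the asynchronous list and at 47891802 to 47892022 in the mitotic list.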
